A study of Homo sapiens with 4 samples.

Results

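The 40 genes described here act in mismatch repair, nucleotide excision repair, base excision repair, DNA end joining and translesion synthesis. They were chosen by gene symbol from a list of these pathways, matched by Ensembl identifier in GENCODE release 29, and made up 40 of the 58735 genes in the count files. All 40 were found, and 39 had enough counts to be tested. The RNA came from A549 cells, a human lung adenocarcinoma line labelled as alveolar basal epithelial cells. Both groups had been infected with lentivirus and were sampled at a time labelled day 2. The knockdown cells carried a hairpin against RALY, a heterogeneous nuclear ribonucleoprotein that binds RNA (shRALY, genotype label RALY knockdown, n = 2 libraries), and the controls a control hairpin (shControl, genotype label WT, n = 2). The sources used here do not give the number or sequence of the hairpins, and results from 1 cell line describe that line.

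Each repair pathway handles its own kind of DNA damage. Mismatch repair proteins recognise wrongly paired bases and small loops left by replication. Nucleotide excision repair cuts out a stretch of strand around bulky lesions such as those made by ultraviolet light. In base excision repair a DNA glycosylase removes a damaged base, the endonuclease APEX1 cuts the backbone, and polymerase and ligase fill and seal the gap, with PARP1, PARP2 and the scaffold XRCC1 called to strand breaks. Non-homologous end joining rejoins broken chromosomes through the Ku heterodimer, the kinase DNA-PKcs and ligase IV, and translesion polymerases copy past lesions that stop the replicative enzymes.

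Total counts ranged from 16745818 to 18632787 per library. Levels are given in CPM, counts scaled to a common library total, on TMM-scaled library sizes, and the log2 fold change is of shRALY over shControl, with its standard error (SE). A gene was called higher or lower at a Benjamini-Hochberg adjusted p under 0.05 over the 15912 genes tested with edgeR's quasi-likelihood test. By that rule 41% of all tested genes were called, 20.6% higher and 20.4% lower in shRALY. RALY itself had 751 and 679 counts in the shRALY libraries, against 2208 and 2272 in the shControl libraries (log2 fold change -1.64, SE 0.11; edgeR adjusted p = 5.85e-11). The replicates were distinct beyond counting error, since the chi-square statistic averaged 4.92 per gene within shRALY and 11.8 within shControl. No label says that they came from separate cultures, so p-values reflect only how these libraries vary, which may be technical. Of the 6 epithelial and adhesion markers, KRT8, KRT18 and EPCAM were not called, with KRT8 at 3846 CPM in shRALY and 3723 CPM in shControl. The other 3 were higher: KRT19 averaged 311 ± 17.4 CPM in shRALY and 95.4 ± 7.39 CPM in shControl, CDH1 32.1 ± 3.87 CPM in shRALY and 23.2 ± 5.16 CPM in shControl, and CDH2 128 ± 7.18 CPM in shRALY and 92.4 ± 1.62 CPM in shControl (SD, n = 2 each). The 5 markers of surfactant-producing alveolar cells summed to 117 and 140 CPM in the shRALY libraries, against 73.9 and 105 CPM in the shControl libraries. Among them LAMP3 was higher, at 31.8 ± 6.45 CPM in shRALY and 0.145 ± 0.127 CPM in shControl (edgeR adjusted p = 2.25e-14), ABCA3 (95.4 CPM in shRALY, 87.7 CPM in shControl) and NAPSA were not called, and SFTPB and SFTPC averaged at most 0.201 CPM in either group. The part of these marker shifts in the results on repair genes was not tested. The 12 immune cell markers summed to 12.7 to 16.5 CPM in the shRALY libraries and 14.7 to 16.8 CPM in the shControl libraries, with CD3E, MS4A1 and LYZ at 0 counts.

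The promoter stretches of a few genes are shown first because they belong to the members with the largest falls. That of the polymerase gene REV3L, which was higher, is shown too. REV3L (log2 fold change 0.46) was not the largest rise. TDG (0.83) and XPA (0.54) rose more, and their windows held none of the letters marked below. They are RefSeq windows on GRCh38.p14, 250 bases long and ending just before an annotated start. NEIL3 is at chr4:177309624-177309873 on the plus strand, UNG at chr12:109097922-109098171 on the plus strand (the downstream of the starts listed for UNG), LIG3 at chr17:34980262-34980511 on the plus strand and REV3L at chr6:111483219-111483468 on the minus strand. Capitals mark a match to TTTGAA, a spelling of the cell cycle element known as CHR, or to TTTCCCGC or TTTGGCGC, spellings of the E2F site, on either strand (in UNG the match is the reverse complement). Other spellings of either element were not searched or marked. The LIG3 window held none of the searched letters. UNG and REV3L each have another listed start, whose window held no match. For these genes the window with a match was chosen for display.
NEIL3: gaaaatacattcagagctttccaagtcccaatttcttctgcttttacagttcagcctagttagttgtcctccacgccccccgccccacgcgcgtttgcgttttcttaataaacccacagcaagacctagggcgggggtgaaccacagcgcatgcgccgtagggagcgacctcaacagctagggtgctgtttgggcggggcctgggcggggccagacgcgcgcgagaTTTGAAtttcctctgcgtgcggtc
UNG: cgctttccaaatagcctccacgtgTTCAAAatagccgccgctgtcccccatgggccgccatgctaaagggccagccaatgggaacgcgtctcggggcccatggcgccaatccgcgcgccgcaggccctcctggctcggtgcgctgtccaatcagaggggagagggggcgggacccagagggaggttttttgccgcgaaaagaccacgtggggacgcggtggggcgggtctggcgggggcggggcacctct
LIG3: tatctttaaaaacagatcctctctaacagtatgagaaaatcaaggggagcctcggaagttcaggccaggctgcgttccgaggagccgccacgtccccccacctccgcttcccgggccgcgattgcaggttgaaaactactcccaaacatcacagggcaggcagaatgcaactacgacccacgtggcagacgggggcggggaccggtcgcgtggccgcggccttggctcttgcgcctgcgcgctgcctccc
REV3L: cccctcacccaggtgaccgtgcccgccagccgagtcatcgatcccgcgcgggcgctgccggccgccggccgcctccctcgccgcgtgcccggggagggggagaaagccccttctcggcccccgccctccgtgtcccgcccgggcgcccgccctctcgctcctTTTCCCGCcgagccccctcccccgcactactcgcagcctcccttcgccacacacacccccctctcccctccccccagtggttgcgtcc
For XRCC1 (chr19:43575577-43575606, minus strand), only the 30 bases around the match are shown, since annotated exons of overlapping transcripts cover its window.
XRCC1: ggcgcgccggggTTTGAAaggcccgagcct

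Promoter entries were found for 35 of the 40 genes. TTTGAA occurred in at least 1 window of 4 of the 15 genes lower in shRALY (UNG, NEIL3, MUTYH and XRCC1). It also occurred in 1 of the 6 higher genes (ERCC1) and in 1 of the 13 genes not called (ERCC6). That is 6 of the 35 genes, against 16.1% of the 27305 genes with promoter entries and 13.3% of all 35116 windows. The 35 genes have 53 windows. Genes with more than 1 window, such as UNG and MUTYH, have more places for a match, and the difference between groups was not tested. TTTCCCGC or TTTGGCGC occurred in 0 of the 15 lower genes, 2 of the 6 higher genes (POLI and REV3L) and 1 of the 13 genes not called (MSH3). Of all genes, 2.36% held either. Other spellings of the E2F site were not searched, so these counts do not say which genes lack such a site. A match describes letters in these windows and is not evidence of a bound factor, and no match says only that these letters are not in the window.

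Of the 39 tested repair genes, 17 were lower and 6 higher in shRALY, or 43.6% and 15.4%, beside 20.4% and 20.6% of all tested genes. The median log2 fold change was -0.31 over the repair genes and -0.01 over all genes tested. Most shifts were moderate: 4 genes were lower by 2-fold or more (NEIL3, UNG, LIG3 and XRCC1) and no gene was higher by that much, where the shares of all genes were 6.57% and 6.99%. Both shRALY libraries lay on one side of both shControl libraries for 30 of the 39 genes, beside 69.7% of all genes. In 10 of the 23 called genes the call stood whichever library was left out: NEIL3, UNG, LIG3, XRCC1, MSH6, PARP2, PRKDC, PARP1 and MBD4, which were lower, and TDG, which was higher. Without shRALY replicate 1 the calls were 11 lower and 3 higher, and without shRALY replicate 2 they were 9 lower and 1 higher. Over all genes the calls also fell in number, to 1897 lower and 2260 higher without shRALY replicate 1 and to 1980 lower and 2040 higher without shRALY replicate 2, beside 3245 lower and 3274 higher with all libraries. In bulk RNA, fewer cells of a kind, such as dividing cells, and less RNA per cell cannot be told apart.

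**Figure D1:**
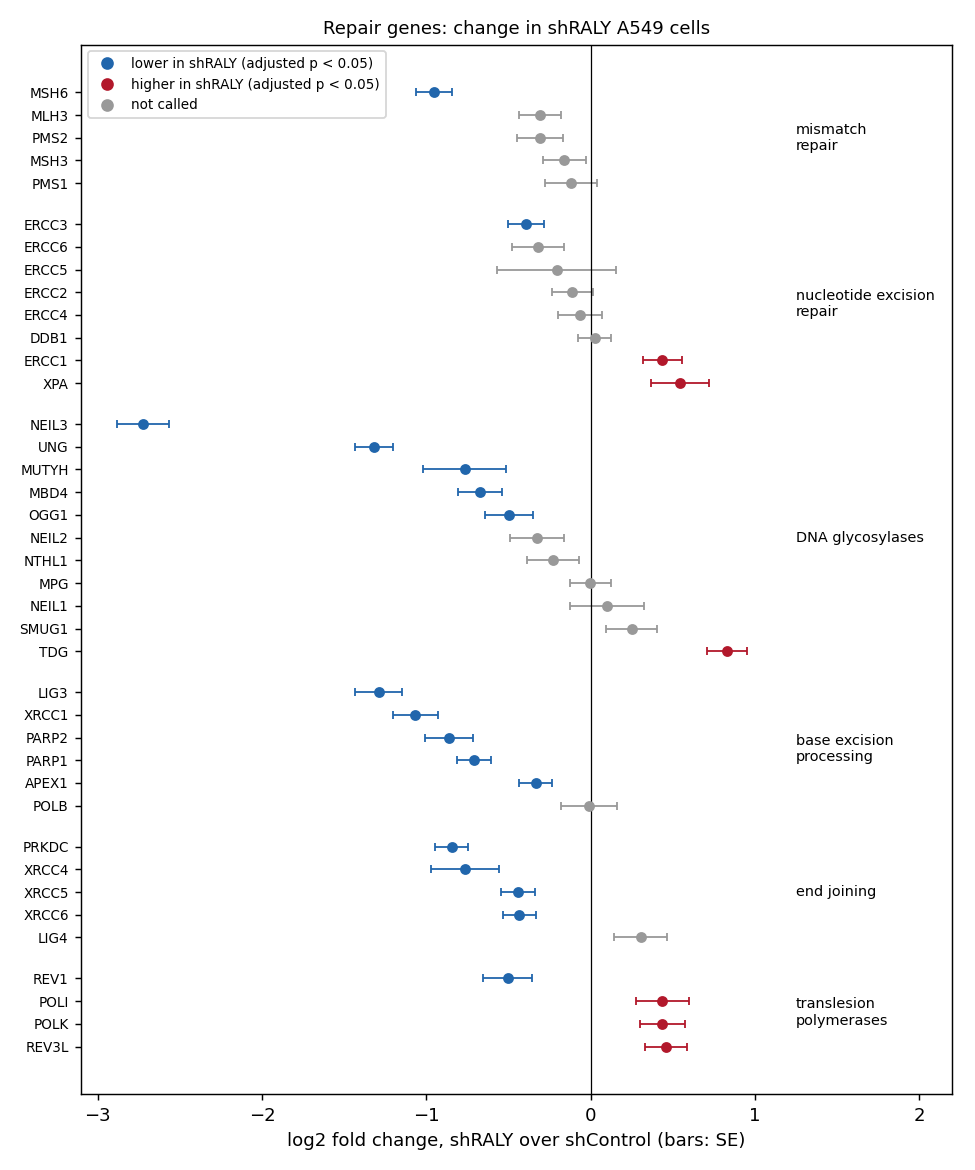
Log2 fold change of each of the 39 tested repair genes, shRALY over shControl, by pathway; bars are SE from the edgeR fit and colour gives the call at adjusted p under 0.05. NEIL3 stood lowest at -2.72 and TDG highest at 0.83, and 5 of the 6 base excision processing genes were called lower.

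DNA glycosylases, which start base excision repair, held both extremes. NEIL3, a glycosylase for oxidised bases that is known for expression in dividing cells, had 6.53 and 6.36 CPM in the shRALY libraries, against 46.1 and 39.2 CPM in the shControl libraries. The groups lay far apart, and NEIL3 was 6.61-fold lower (log2 fold change -2.72, SE 0.16; edgeR adjusted p = 2.84e-12). The gene (ENSG00000109674) lies at chr4:177309836-177362943 in GRCh38. UNG, which removes uracil from DNA, had 43.2 and 45.9 CPM in shRALY, against 106 and 116 CPM in shControl. UNG was thus 2.49-fold lower with no overlap between groups (log2 fold change -1.32, SE 0.11; edgeR adjusted p = 2.80e-09). It (ENSG00000076248) lies at chr12:109097574-109110992, and its nuclear and mitochondrial forms, made from different starts, are counted together.

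TDG, which removes thymine or uracil opposite guanine and oxidised methylcytosine, moved the other way. It had 79.6 and 71.0 CPM in shRALY, against 45.7 and 39.0 CPM in shControl, which is 1.78-fold higher (log2 fold change 0.83, SE 0.12; edgeR adjusted p = 7.75e-06). TDG (ENSG00000139372, chr12:103965804-103988874) shared 10.9% of its 50-base words with a processed copy. MBD4, which like TDG acts on thymine opposite guanine at CpG sites, averaged 24.6 ± 1.39 CPM in shRALY and 39.4 ± 4.51 CPM in shControl (SD, n = 2 each), 1.60-fold lower. These enzymes for the same mispair thus stood on opposite sides of 0.

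OGG1, the glycosylase for 8-oxoguanine, averaged 16.2 ± 0.08 CPM in shRALY and 22.9 ± 0.64 CPM in shControl (SD, n = 2 each; log2 fold change -0.50; edgeR adjusted p = 0.00976). MUTYH, which removes adenine paired with 8-oxoguanine, averaged 4.37 ± 0.13 CPM in shRALY and 7.46 ± 2.57 CPM in shControl (log2 fold change -0.77; edgeR adjusted p = 0.0183). OGG1 was no longer called when shRALY replicate 1 was left out (edgeR adjusted p = 0.122), nor when replicate 2 was (edgeR adjusted p = 0.114). For MUTYH the edgeR adjusted p was 0.059 with shRALY replicate 1 left out, 0.0837 with shRALY replicate 2 left out and 0.347 with shControl replicate 2 left out (log2 fold change -0.35), and DESeq2 gave an adjusted p of 0.105. CAMK1, on the other strand, covers 29% of the exonic bases of OGG1. The strand setting is not given, so whether reads there were assigned by strand is unknown. The 5 glycosylase genes not called were MPG, NTHL1, NEIL1, NEIL2 and SMUG1, with log2 fold changes from -0.33 to 0.25 and SE from 0.12 to 0.22. NEIL2 was called lower without shControl replicate 1 (log2 fold change -0.50; edgeR adjusted p = 0.0114).

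**Figure D2:**
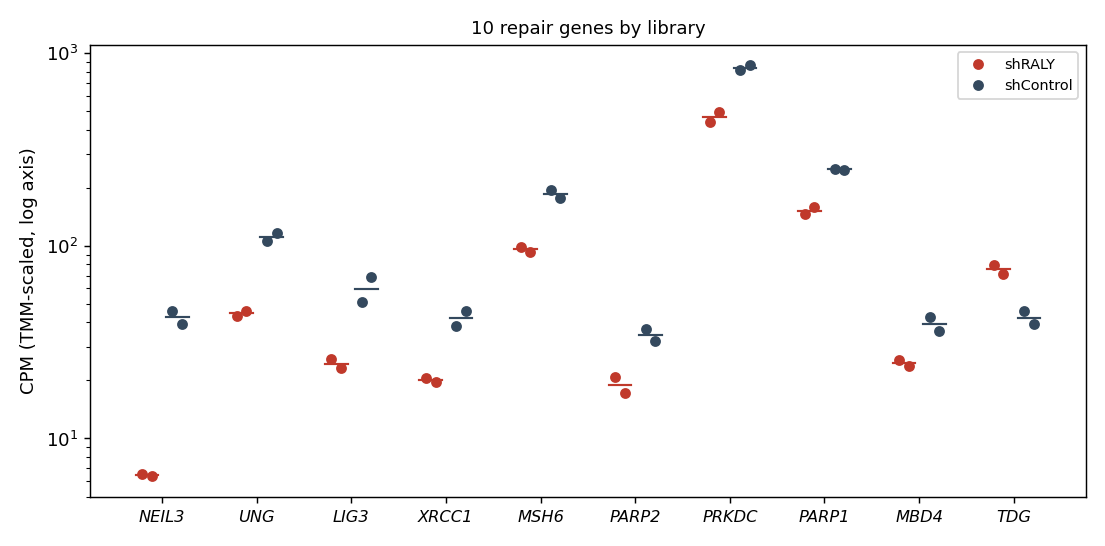
Level of the 10 repair genes whose call stood with any library left out, in CPM on a log axis; points are libraries (2 per group), and short lines are group means, shRALY left of shControl. In 9 genes both shRALY points lie below both shControl points, and TDG is the exception, at 75.3 CPM in shRALY and 42.4 CPM in shControl.

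Downstream of the glycosylases, 5 of the 6 genes of base excision processing and strand-break repair were lower and none higher. Over all tested genes 20.4% were lower. None of the 6 was higher at an unadjusted edgeR p under 0.05 or with DESeq2. LIG3, the ligase that seals the last nick, had 25.8 and 23.1 CPM in shRALY, against 51.3 and 68.6 CPM in shControl. It was 2.45-fold lower (log2 fold change -1.29, SE 0.14; edgeR adjusted p = 1.16e-07), though the shControl libraries differed between themselves. RFFL, on the other strand, covers 30.5% of the exonic bases of LIG3 (ENSG00000005156, chr17:34980494-35009743), and RFFL averaged 44.4 ± 0.61 CPM in shRALY and 34.9 ± 0.02 CPM in shControl. XRCC1, the scaffold that binds and stabilises the LIG3 protein, had 20.6 and 19.7 CPM in shRALY, against 38.4 and 46.0 CPM in shControl. XRCC1 was 2.09-fold lower (log2 fold change -1.07, SE 0.14; edgeR adjusted p = 1.37e-06), so the RNA of both partners was lower. Protein was not measured here. XRCC1 (ENSG00000073050) lies at chr19:43543040-43580473.

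PARP1, which detects strand breaks and makes poly(ADP-ribose), had 146 and 159 CPM in shRALY, against 251 and 247 CPM in shControl (log2 fold change -0.71, SE 0.10; edgeR adjusted p = 7.66e-06). Its relative PARP2 averaged 19 ± 2.63 CPM in shRALY and 34.5 ± 3.47 CPM in shControl, 1.82-fold lower. Per length, in TPM, which scales each level by exonic length, PARP1 exceeded PARP2 by 4.0 and 5.30 times in the shRALY libraries and by 3.89 and 4.41 times in the shControl libraries, so the ratio overlapped between groups. APEX1 averaged 163 ± 2.29 CPM in shRALY and 206 ± 4.10 CPM in shControl (log2 fold change -0.33; edgeR adjusted p = 0.0118). With shRALY replicate 1 or 2 left out, the edgeR adjusted p of APEX1 was 0.243 or 0.199. POLB, the gap-filling polymerase, averaged 12.9 ± 0.41 CPM in shRALY and 13 ± 1.03 CPM in shControl (log2 fold change -0.01, SE 0.17) and was the 1 gene of these 6 that was not called.

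In end joining, 4 of the 5 tested genes were lower and none higher, at the adjusted threshold, at an unadjusted edgeR p under 0.05 and with DESeq2. At the adjusted threshold 20.4% of all tested genes were lower. PRKDC, on chromosome 8, encodes DNA-PKcs, the kinase recruited by Ku. It had 441 and 493 CPM in shRALY, against 814 and 864 CPM in shControl, 1.80-fold lower (log2 fold change -0.85, SE 0.10; edgeR adjusted p = 4.31e-07). The Ku genes XRCC6 (Ku70) and XRCC5 (Ku80) fell by similar amounts. XRCC6 had 313 and 307 CPM in shRALY, against 424 and 413 CPM in shControl (log2 fold change -0.43, SE 0.10; edgeR adjusted p = 0.00125). XRCC5 had 378 and 354 CPM in shRALY, against 523 and 471 CPM in shControl (log2 fold change -0.44, SE 0.10; edgeR adjusted p = 0.00135). With shRALY replicate 1 or 2 left out, XRCC6 was not called (edgeR adjusted p = 0.072 and 0.0988), nor was XRCC5 with shRALY replicate 2 left out (edgeR adjusted p = 0.123).

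Per length, the balance of the Ku subunits was alike in all 4 libraries: the XRCC6 to XRCC5 ratio of TPM was 1.38 and 1.44 in shRALY and 1.35 and 1.46 in shControl. PRKDC relative to XRCC5 stood lower in both shRALY libraries, at 0.413 and 0.494, against 0.551 and 0.651 in shControl. XRCC4 and LIG4, the ligation partners, diverged. XRCC4, the scaffold of ligase IV, averaged 6.39 ± 0.73 CPM in shRALY and 10.9 ± 1.68 CPM in shControl (log2 fold change -0.76; edgeR adjusted p = 0.00462). With shRALY replicate 2 left out, its edgeR adjusted p was 0.0836. LIG4 averaged 22.0 ± 0.46 CPM in shRALY and 17.8 ± 3.94 CPM in shControl and was not called (log2 fold change 0.31, SE 0.16; edgeR adjusted p = 0.14). Without shControl replicate 1, LIG4 was called higher (log2 fold change 0.55; edgeR adjusted p = 0.00445). The LIG4 to XRCC4 ratio of TPM was 1.97 and 2.26 in shRALY, against 1.04 and 0.946 in shControl. With 2 libraries per group an exact permutation test of such a ratio cannot go below p = 0.333, so no ratio was tested.

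NHEJ1, which encodes the end-joining factor XLF, had 0 and 3 counts in shRALY, against 3 and 5 in shControl, too few to test. It shares 96.2% of its 50-base words with the read-through gene AC068946.1, which held at most 3 counts in any library. ERCC5, the nuclease XPG of nucleotide excision repair, shares 99.9% of its words with the read-through BIVM-ERCC5, which had 0 counts in all 4 libraries, and averaged 1.99 ± 0.21 CPM in shRALY and 2.30 ± 0.81 CPM in shControl. The sources used here do not say how reads in shared exons were counted, so the low counts of NHEJ1 and ERCC5 do not give the level of these transcripts.

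Mismatch repair genes had log2 fold changes below 0 in 5 of 5 cases, as did 8114 of all 15912 tested genes. PMS1 stood at 0.079 without shControl replicate 1 and at 0.0073 without shRALY replicate 2. The test was passed by 1 gene, or 20%, beside 20.4% of all tested genes called lower. MSH6, the partner in the MutS alpha dimer that recognises base mismatches, had 98.3 and 93.0 CPM in shRALY, against 194 and 177 CPM in shControl. MSH6 was 1.94-fold lower (log2 fold change -0.95, SE 0.11; edgeR adjusted p = 2.09e-07). FBXO11, on the other strand, covers 16.2% of the exonic bases of MSH6 (ENSG00000116062, chr2:47695530-47810101). MSH3, the alternative partner that recognises loops, averaged 28.0 ± 0.22 CPM in shRALY and 31.3 ± 0.79 CPM in shControl and was not called (log2 fold change -0.16, SE 0.13; edgeR adjusted p = 0.353). The MSH6 to MSH3 ratio of TPM was 1.5 and 1.43 in the shRALY libraries, against 2.61 and 2.46 in the shControl libraries, a separation without overlap.

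The MutL genes PMS1, PMS2 and MLH3 had log2 fold changes of -0.12 (SE 0.16), -0.31 (SE 0.14) and -0.31 (SE 0.13). None was called, with edgeR adjusted p of 0.58, 0.0881 and 0.0581. MLH3, an endonuclease subunit, passed without shControl replicate 2 (log2 fold change -0.39; edgeR adjusted p = 0.00502), with library size alone (edgeR adjusted p = 0.0251) and among protein-coding genes alone (edgeR adjusted p = 0.0487). PMS2, the main MutL endonuclease subunit, passed with library size alone (edgeR adjusted p = 0.0432). It shares 34.1% of its 50-base words with the pseudogene PMS2CL, so its counts are uncertain.

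Of 8 nucleotide excision repair genes tested, 2 were higher (25%), 1 was lower (12.5%) and 5 were not called. These shares lie near those of all tested genes, 20.6% higher and 20.4% lower. ERCC1, the partner that anchors the nuclease ERCC4 to damaged DNA, had 82.1 and 82.9 CPM in shRALY, against 55.5 and 66.4 CPM in shControl (log2 fold change 0.44, SE 0.12; edgeR adjusted p = 0.00452). XPA, which verifies the lesion, had 14.3 and 18.1 CPM in shRALY, against 12.1 and 10.1 CPM in shControl (log2 fold change 0.54, SE 0.18; edgeR adjusted p = 0.0184). Both genes lay higher in each shRALY library than in either shControl library. ERCC3, a DNA translocase of the transcription factor TFIIH, had 63.5 and 60.0 CPM in shRALY, against 82.5 and 79.8 CPM in shControl (log2 fold change -0.39, SE 0.11; edgeR adjusted p = 0.00683).

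None of these nucleotide excision calls stood with every library left out in turn, though the directions held. Without shRALY replicate 1 the log2 fold change was 0.45 for ERCC1 and -0.43 for ERCC3. Without shRALY replicate 2 it was 0.44 and -0.34. For XPA it ranged from 0.38 to 0.71 with a library left out. With shRALY replicate 1 left out, the edgeR adjusted p was 0.0733 for ERCC1 and 0.107 for ERCC3, and with shRALY replicate 2 left out it was 0.0837 and 0.217. XPA was not called with shRALY replicate 2 left out (edgeR adjusted p = 0.298), with shControl replicate 2 left out (edgeR adjusted p = 0.0564) or in DESeq2 (adjusted p = 0.0645). CD3EAP, on the other strand, covers 28.6% of the exonic bases of ERCC1, and CD3EAP averaged 7.21 ± 0.96 CPM in shRALY and 12 ± 1.28 CPM in shControl. DDB1, a ubiquitin ligase adaptor that recruits repair to ultraviolet damage, was the most abundant of the group per length, at 89.3 ± 1.89 TPM in shRALY and 95.9 ± 2.91 TPM in shControl, and was not called (log2 fold change of CPM 0.03, SE 0.10, and -0.03 with library size alone). The other genes not called were the TFIIH helicase gene ERCC2, the nuclease genes ERCC4 and ERCC5, and ERCC6, which acts at stalled transcription, with log2 fold changes from -0.32 to -0.06.

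The 4 translesion polymerase genes were all called, 3 higher and 1 lower, where 20.6% and 20.4% of all tested genes were. REV3L, the catalytic subunit of polymerase zeta, had 42.5 and 50.2 CPM in shRALY, against 34.6 and 32.8 CPM in shControl (log2 fold change 0.46, SE 0.13; edgeR adjusted p = 0.0059). POLK, a Y-family polymerase, had 36.5 and 38.3 CPM in shRALY, against 30.4 and 24.7 CPM in shControl (log2 fold change 0.44, SE 0.14; edgeR adjusted p = 0.0124). POLI, another of that family, averaged 21.5 ± 1.53 CPM in shRALY and 15.9 ± 2.79 CPM in shControl (log2 fold change 0.44; edgeR adjusted p = 0.0335). REV1, the scaffold that brings these polymerases together, went the other way, with 22.6 and 22.3 CPM in shRALY, against 36.6 and 27.0 CPM in shControl (log2 fold change -0.50, SE 0.15; edgeR adjusted p = 0.0099).

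None of these 4 calls stood against every left-out library. Without shRALY replicate 2 the edgeR adjusted p was 0.227 for REV3L, 0.14 for POLK, 0.254 for POLI and 0.0959 for REV1. Without shRALY replicate 1 it was 0.0762 for POLK, 0.0889 for POLI and 0.0764 for REV1. POLI was also lost without shControl replicate 2 (edgeR adjusted p = 0.15), with library size alone (edgeR adjusted p = 0.0619) and by DESeq2 (adjusted p = 0.0953). REV1 was lost without shControl replicate 1 (log2 fold change -0.27; edgeR adjusted p = 0.122).

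By length-corrected level, the same 4 genes led in both groups. XRCC6 averaged 298 ± 4.45 TPM in shRALY and 439 ± 0.61 TPM in shControl (SD, n = 2 each). APEX1 averaged 273 ± 3.64 TPM in shRALY and 376 ± 13.7 TPM in shControl. XRCC5 averaged 211 ± 10.2 TPM in shRALY and 313 ± 18.4 TPM in shControl, and PRKDC 95.5 ± 7.49 TPM in shRALY and 188 ± 11.1 TPM in shControl. NEIL3 stood at 6.87 ± 0.13 TPM in shRALY, rank 33 of 40, and at 49.6 ± 4.92 TPM in shControl, rank 10. TDG ranked 9 in shRALY, at 48.4 ± 3.95 TPM, and 15 in shControl, at 29.8 ± 2.81 TPM. PRKDC and DDB1 were neighbours in the shRALY order, at 95.5 ± 7.49 and 89.3 ± 1.89 TPM, a gap smaller than the SD of PRKDC. TPM is not TMM-scaled, so a TPM difference between groups includes a difference of scale. MPG, at 35.1 CPM in both groups, averaged 66.6 ± 0.81 TPM in shRALY and 72.9 ± 1.18 TPM in shControl. The 40 genes together took 1623 and 1629 TPM in the shRALY libraries, against 2372 and 2396 TPM in the shControl libraries. End joining genes, led by the abundant XRCC5 and XRCC6, summed to 634 and 622 TPM in shRALY, against 977 and 959 TPM in shControl. Nucleotide excision genes summed to 213 and 221 TPM in shRALY and to 217 and 230 TPM in shControl, and these ranges overlapped.

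Another 70 genes of the same pathways, of which 69 were tested, showed 37 lower and 11 higher, with a median log2 fold change of -0.37. These are 53.6% and 15.9%, beside 20.4% and 20.6% of all tested genes. Mismatch repair partners, most of them also replication factors, were lower in 16 of 17 cases and higher in 1. The nuclease EXO1 averaged 3.88 ± 0.90 CPM in shRALY and 40.5 ± 3.62 CPM in shControl (10.4-fold lower), and the clamp loader subunit RFC5 averaged 10.3 ± 2.27 CPM in shRALY and 51.7 ± 1.59 CPM in shControl. Of 10 further base excision genes, 7 were lower (70%) and 2 higher (20%). The flap nuclease FEN1 averaged 30.2 ± 3.13 CPM in shRALY and 142 ± 1.5 CPM in shControl (4.71-fold lower), and TDP1, which clears blocked 3′ ends, averaged 6.38 ± 0.49 CPM in shRALY and 22.4 ± 0.19 CPM in shControl. Of 12 further end-joining genes, 4 were lower (33.3%) and 3 higher (25%). POLQ, the polymerase of theta-mediated end joining, averaged 6.63 ± 0.30 CPM in shRALY and 61.1 ± 2.36 CPM in shControl (9.22-fold lower), whereas TDP2, which releases trapped topoisomerase, averaged 97.6 ± 1.79 CPM in shRALY and 48.2 ± 9.86 CPM in shControl (2.02-fold higher).

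Of 18 further nucleotide excision genes tested, 4 were higher (22.2%) and 3 lower (16.7%), near the 20.6% and 20.4% of all tested genes. The lesion sensor XPC averaged 69.4 ± 6.34 CPM in shRALY and 44.5 ± 1.70 CPM in shControl, and the TFIIH subunit GTF2H1 averaged 31.7 ± 2.58 CPM in shRALY and 60.2 ± 8.10 CPM in shControl. Of 12 further translesion genes, 7 were lower (58.3%) and 1 higher (8.33%). USP1, which removes ubiquitin from PCNA, averaged 28.7 ± 2.07 CPM in shRALY and 69.3 ± 11.1 CPM in shControl, and the ubiquitin ligase gene RAD18 averaged 16.4 ± 0.29 CPM in shRALY and 33.0 ± 0.85 CPM in shControl. These 10 named genes each kept their call with any library left out. Homologous recombination and Fanconi genes, listed for comparison, were lower in 19 of 23 tested and higher in none at the adjusted threshold, with a median log2 fold change of -1.32; at an unadjusted edgeR p under 0.05, 19 were lower and 1 higher, and DESeq2 called 17 lower and 0 higher. The difference between that list and the 40 repair genes was not tested.

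**Figure D3:**
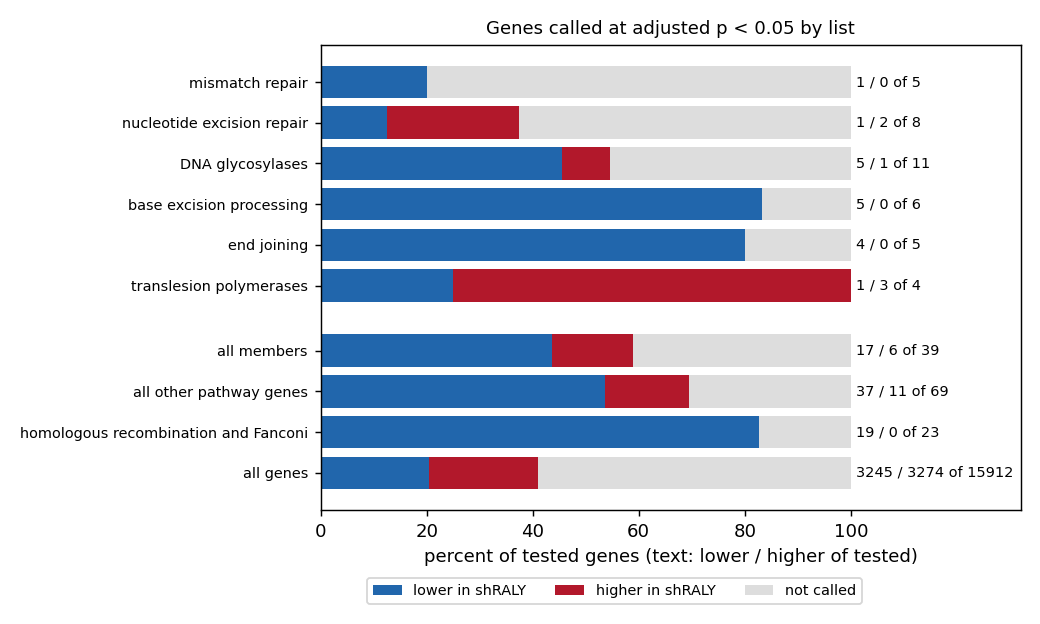
Share of tested genes called lower, higher or not called in shRALY (edgeR adjusted p under 0.05), in percent, for the 6 groups of repair genes above the gap and, below it, all 39 tested repair genes, 69 other pathway genes, 23 homologous recombination and Fanconi genes and all 15912 genes. Base excision processing and end joining had the largest shares lower among the repair groups (5 of 6 and 4 of 5), and the translesion polymerases the largest share higher (3 of 4).

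Some repair genes have a protein-coding neighbour on the opposite strand whose start lies close by and which is read in the other direction. In 7 pairs the starts did not overlap and lay within 1000 bases. PRKDC and MCM4, a subunit of the replicative helicase, start 2 bases apart, and both were lower. MCM4 had 60.5 and 59.5 CPM in shRALY, against 318 and 318 CPM in shControl (log2 fold change -2.40, SE 0.11; edgeR adjusted p = 3.36e-14), a larger fall than the -0.85 of PRKDC. XRCC6 and DESI1, whose starts are 23 bases apart, were called in opposite directions: DESI1 averaged 54.9 ± 1.92 CPM in shRALY and 41.7 ± 0.95 CPM in shControl (log2 fold change 0.40; edgeR adjusted p = 0.00922). TDG and APEX1 were called and their neighbours C12orf73 and OSGEP were not, at log2 fold changes of -0.08 and -0.16. RHBDF1 was higher (log2 fold change 0.62; edgeR adjusted p = 0.000264) beside MPG, whose log2 fold change was -0.0014, and neither gene was called in the pairs of PMS2 with AIMP2 and of LIG4 with ABHD13. Over the 7 pairs, both genes were called in the same direction in 1 and in opposite directions in 1.

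**Figure D4:**
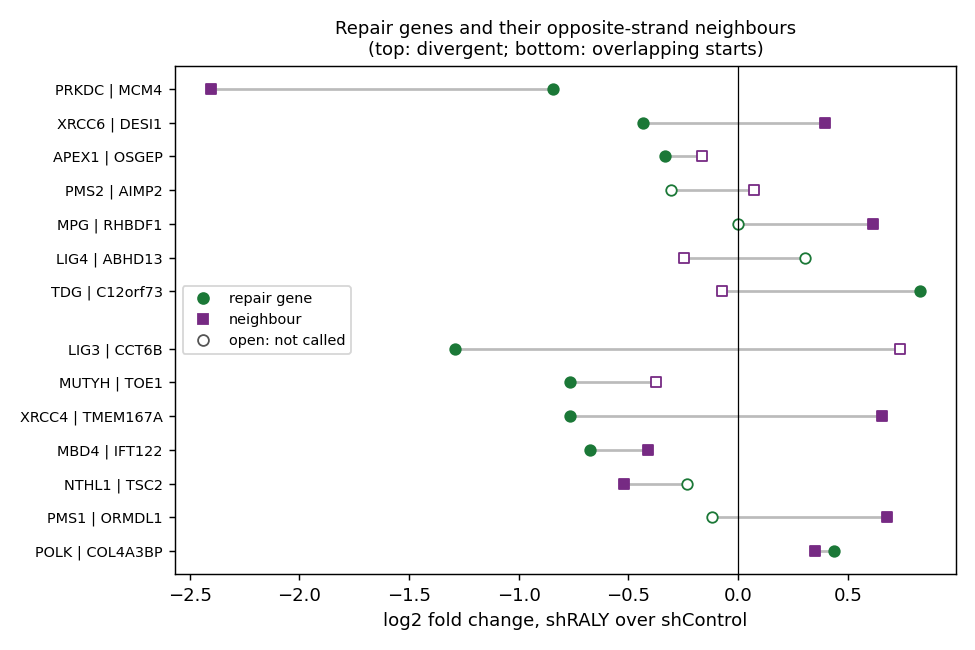
Log2 fold change, shRALY over shControl, of 14 repair genes (circles) and their opposite-strand neighbours (squares); filled symbols passed the test at adjusted p under 0.05, the upper 7 pairs have separate divergent starts and the lower 7 have overlapping starts. The long line for PRKDC with MCM4 (-0.85 and -2.40) shows a pair that fell by unequal amounts, and the line for XRCC4 with TMEM167A (-0.76 and 0.65) a pair called in opposite directions.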

How the data were processed

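The 40 genes, the other lists and the tests were chosen with earlier results of these data known. RNA was extracted with Trizol and poly-T selected per the labels' protocols, and the authors deposited raw read counts of Ensembl genes, in a separate file for each library. The submitters' processing notes name HISAT2 2.0.5, featureCounts 1.5.0-p3, DESeq2 1.20.0 and hg38, with no roles; the sources used here do not give the annotation, strand setting or handling of shared reads.

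All 58735 identifiers matched GENCODE 29. Genes were kept by filterByExpr (minimum count 10, minimum total 15), scaled by TMM and tested with edgeR 4.0.16 in R 4.3.3 by the robust quasi-likelihood test, shRALY against shControl, with 2 residual degrees of freedom. SE is the absolute log2 fold change over the square root of F. TPM used all annotated exonic bases and no TMM scaling. Genes described in full were RALY and, per repair group, the 3 called genes with the smallest adjusted p; of each other pathway list, the 2 with the smallest. DESeq2 1.42.0 was an alternative. Shared words are 50-base stretches of a gene's longest transcript found in that of another gene. Overlap or sharing above 20% is treated as uncertain, and applied to 9 of the 40 genes (1 neighbour pair is not reported here): PMS2, ERCC1, ERCC4, ERCC5, OGG1, NEIL1, MPG, LIG3 and NHEJ1. A count of 3, the limit for a gene with no counts, corresponds to 0.161 to 0.179 CPM and covers counting error only.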

Additional observations from a re-analysis of the deposited data

How the results depend on the processing

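The 12 alternatives were scaling by library size alone or RLE, DESeq2, protein-coding genes alone, the replicate block, a non-robust fit, no low-count filter, a 10 CPM filter (which left out 4 repair genes) and each library left out in turn; a lone library is then assumed to vary like the other group. RALY kept its direction and call in all 12. Of the 39 tested repair genes, 15 kept direction and call throughout, 13 called genes lost their call somewhere, 4 others gained one, and no called gene changed sign. With a library left out, repair genes lower ranged from 9 to 17 and higher from 1 to 7, their median log2 fold change from -0.34 to -0.24, and all genes lower from 1897 to 3499 and higher from 2040 to 3559. The median was -0.37 with library size alone, where the median of all genes was -0.07 in place of -0.01; the cause of the other shifts was not tested. Genes near 0 changed sign: DDB1 to -0.030 with library size alone; POLB to 0.0023 with DESeq2; MPG to 0.0084 with RLE, 0.012 with DESeq2, 0.0013 without the filter, 0.0086 with the 10 CPM filter and 0.0013 among protein-coding genes. With a library left out, log2 fold changes spanned -0.28 to 0.079 for PMS1, -0.22 to 0.020 for ERCC2, -0.53 to 0.22 for ERCC5, -0.066 to 0.31 for NEIL1, -0.0057 to 0.019 for MPG and -0.095 to 0.087 for POLB. Same-numbered libraries deviated together at a correlation of only 0.0721 across genes. With 2 libraries per group this cannot settle whether the numbers pair them, and the labels do not say. With the replicate block, 18 repair genes were lower and 6 higher (MLH3 gained, edgeR adjusted p = 0.022). Of all genes, 3619 were lower and 3639 higher in that fit.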

Other observations

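In 7 further pairs the annotated starts of a repair gene and its opposite-strand neighbour overlapped, so that the gene spans share bases. Where exons share them too, it is unknown whether reads there were assigned by strand. XRCC4 was lower (log2 fold change -0.76) and its neighbour TMEM167A higher, at 129 ± 2.05 CPM in shRALY and 81.8 ± 11.4 CPM in shControl (log2 fold change 0.65; edgeR adjusted p = 8.14e-05). MBD4 and IFT122 were both lower, at -0.67 and -0.41, and POLK and COL4A3BP both higher, at 0.44 and 0.35. LIG3 and MUTYH were called and their neighbours CCT6B and TOE1 were not. PMS1 and NTHL1 were not called, while ORMDL1 was higher (0.68) and TSC2 lower (-0.52). These genes were named after their values were seen. Over all 14 pairs, both genes were called in the same direction in 3 and in opposite directions in 2. In 4 pairs only the repair gene was called, and in 3 only the neighbour. Of all tested genes 41% were called, and the pair counts were not tested against that share.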
